A study of Homo sapiens with 6 samples.

Results

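The genes described here encode the factors that hold RNA polymerase II near the promoter or release it into productive elongation. They are the subunits of P-TEFb (CDK9, CCNT1, CCNT2), its inhibitor HEXIM1, both subunits of DSIF (SUPT4H1, SUPT5H) and the subunits of NELF (NELFA, NELFB, NELFCD, NELFE). They were chosen by name, as 10 of the 37192 genes whose counted transcripts matched GENCODE, and all 10 had a counted transcript. Untreated K562, an established human chronic myelogenous leukemia line, was sampled in 4 libraries by RNA-seq of rRNA-depleted total RNA and in 2 by PRO-seq. Per the study's methods the cells of both assays were grown in 1 flask, so the spread given below is that between libraries and not between cultures.

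After initiation, polymerase II pauses shortly downstream of the start site, bound by DSIF and NELF. The CDK9 kinase, with cyclin T1 or T2, phosphorylates DSIF, NELF and the polymerase, NELF leaves, and DSIF stays on as an elongation factor. A pool of P-TEFb is kept inactive by HEXIM1 bound to the 7SK RNA. PRO-seq, which sequences nascent RNA from engaged polymerases, is itself widely used to map such pauses. The counts used here leave out the ends of each counted transcription unit (TU), and so polymerase paused near its start. In NELFA and SUPT5H the counted TU starts far upstream of the canonical start, and the region of the canonical start is counted. What the counts address is how strongly the genes of these factors were transcribed, and how much RNA that transcription left at steady state. The ratio of RNA-seq to PRO-seq, each per length, is proportional to RNA half-life at steady state where elongation rates are alike, which was not tested. "Half-life" below is this ratio, on the log2 scale, relative to the median mRNA.

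Counts on TUs ranged from 5732780 to 9002746 in the RNA-seq libraries and were 6993816 and 7245632 in PRO-seq. The genes GATA1, TAL1, KLF1 and LYL1, markers of K562, had between 3094 and 5032 summed RNA-seq counts each, whereas CD3E, CD79A, ALB and COL1A1, markers of T cells, B cells, hepatocytes and fibroblasts, had between 3 and 15. RNA-seq replicates 1 and 3 differed little from each other, as did replicates 2 and 4 (chi-square per degree of freedom 1.12 in both pairs). The other RNA-seq pairs differed more (1.74 to 2.11). Except where close pairs are summed, the values below treat these as separate libraries, so their SDs and SEs may understate the spread. Of the 2278 TUs that lie wholly inside another counted TU of the same strand, 2.46% had any PRO-seq count, against 58.7% of the 4795 that lie inside one of the other strand only. In PRO-seq, then, TUs inside a gene of the same strand were mostly at 0, and those inside an opposite gene mostly were not.

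This bears directly on SUPT4H1, the small zinc finger subunit of DSIF. Its counted transcript is a 5-exon mRNA of 1643 exon bases on the minus strand of chromosome 17 (the RefSeq gene is at 58345178 to 58352201, GRCh38.p14). All 6177 of its bases that could be counted for PRO-seq lie inside ENSG00000285897, a counted TU of the same strand, and its PRO-seq counts were 0 and 0. Since no base could be counted for SUPT4H1 alone, the 0 sets no upper limit on its transcription. Its RNA-seq TPM (counts per length, scaled to one common total per library) in replicates 1 to 4 was 2.50, 2.82, 2.10 and 2.23, from 9 to 19 counts, and 1284 of its exon bases are shared with exons of the same neighbour, which leaves 359 of its own. How far this sharing lowers the RNA-seq level was not tested, and no half-life was given for SUPT4H1.

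NELFA, the subunit that binds the polymerase, has a different limit. The counted transcript starts 32929 bases upstream of the canonical one, and 59.2% of the 54789 bases counted for PRO-seq lie before the canonical start. The bases around the canonical start are thus among those counted. Of the canonical exon bases, 28.4% were counted and 1574 were not. The NELFA values below are those of this longer TU.

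HEXIM1 is a single-exon gene of 3625 bases, of which 2625 were counted for PRO-seq, and HEXIM2-AS1 on the other strand crosses 700 of these. HEXIM2-AS1 itself had 348 and 321 PRO-seq counts and 2 to 5 RNA-seq counts, and its part in the HEXIM1 counts was not tested. For the other members the counted transcript was the canonical one (CDK9, CCNT2, NELFB, NELFE) or held at least 97.6% of the canonical exon bases (CCNT1, SUPT5H, NELFCD).

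**Figure D1:**
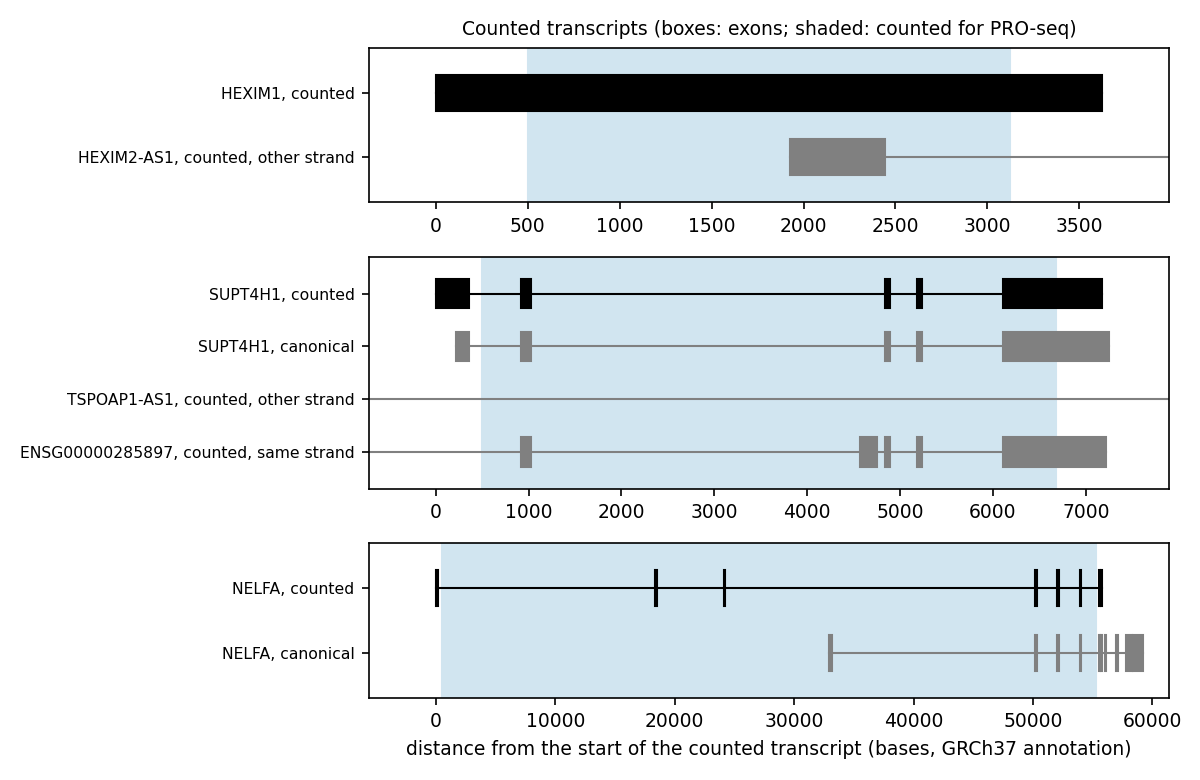
Exons (boxes) and introns (lines) of the transcripts counted for HEXIM1, SUPT4H1 and NELFA (black) with canonical and overlapping transcripts (grey), against distance in bases from the start of the counted transcript on the GRCh37 annotation. Shading marks the bases counted for PRO-seq. The whole shaded span of SUPT4H1 lies within ENSG00000285897, and most of that of NELFA lies before its canonical start.

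The promoters of 4 members are printed because these genes have the lowest (HEXIM1, CDK9) and the highest (NELFB, NELFE) half-lives among those counted on their canonical transcript. Each runs 5′ to 3′ from 250 bases before to 50 bases after the RefSeq start site on GRCh38.p14, at chr17:45148225-45148524 (plus strand) for HEXIM1, chr9:127785784-127786083 (plus) for CDK9, chr9:137255077-137255376 (plus) for NELFB and chr6:31958922-31959221 (minus) for NELFE. Capitals mark matches on either strand to the TATA box core (TATAAA), the CAAT box (CCAAT), the GC box (GGGCGG) and the core bound by ETS factors (CGGAAG). The last pair of motifs can overlap, as in GGGCGGAAG.
HEXIM1: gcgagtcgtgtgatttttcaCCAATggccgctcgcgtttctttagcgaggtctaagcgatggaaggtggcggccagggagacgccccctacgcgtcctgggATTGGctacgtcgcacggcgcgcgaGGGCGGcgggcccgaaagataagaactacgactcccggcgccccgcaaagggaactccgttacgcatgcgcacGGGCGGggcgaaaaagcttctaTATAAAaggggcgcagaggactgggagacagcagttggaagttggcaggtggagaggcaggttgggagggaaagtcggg
CDK9: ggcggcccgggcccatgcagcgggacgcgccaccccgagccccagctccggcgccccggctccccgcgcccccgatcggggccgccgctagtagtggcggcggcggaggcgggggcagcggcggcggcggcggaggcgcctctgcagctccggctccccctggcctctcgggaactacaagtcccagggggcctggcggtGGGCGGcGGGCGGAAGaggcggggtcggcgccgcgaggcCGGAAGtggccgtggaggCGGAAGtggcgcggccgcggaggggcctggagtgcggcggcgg
NELFB: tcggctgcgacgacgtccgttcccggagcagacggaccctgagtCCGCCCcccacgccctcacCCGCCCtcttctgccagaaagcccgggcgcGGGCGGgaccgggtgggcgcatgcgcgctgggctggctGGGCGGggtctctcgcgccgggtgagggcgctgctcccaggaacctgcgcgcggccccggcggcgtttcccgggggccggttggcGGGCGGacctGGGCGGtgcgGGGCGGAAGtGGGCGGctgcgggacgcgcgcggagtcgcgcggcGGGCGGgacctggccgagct
NELFE: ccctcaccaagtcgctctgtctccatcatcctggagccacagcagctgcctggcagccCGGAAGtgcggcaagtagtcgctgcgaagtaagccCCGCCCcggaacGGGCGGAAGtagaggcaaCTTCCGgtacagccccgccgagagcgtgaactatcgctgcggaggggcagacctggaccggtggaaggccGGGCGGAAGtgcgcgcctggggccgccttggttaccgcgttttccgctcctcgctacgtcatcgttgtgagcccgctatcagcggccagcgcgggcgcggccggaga

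A TATA box was matched in the HEXIM1 promoter alone among the 10 members, 29 bases before the start, and in 11.5% of all 35116 promoters. CCAAT was matched in HEXIM1, CCNT1 and CCNT2 (34.6% of all promoters). GGGCGG was matched in 9 of 10 members, NELFA being the exception, against 45.0% of all promoters. CGGAAG was matched in 7 of 10, all but HEXIM1, CCNT2 and SUPT5H, against 19.5%. The promoters held between 59% GC (CCNT1) and 82% (CDK9), with a median of 58.7% over all promoters, and a GC box is itself GC-rich. Whether the members differ from other promoters of like GC content was not tested. The promoters are those of the RefSeq start, whereas the counted TUs of NELFA and SUPT5H start 32929 and 3939 bases upstream of the canonical start. For these genes the matches are therefore not at the start of the counted TU. A match is a description of these letters, and no binding was measured.

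P-TEFb and HEXIM1 were strongly transcribed relative to the RNA they left. All 4 genes were between percentiles 85.0 and 94.2 by PRO-seq, among 14965 mRNAs with a count in both assays, but between percentiles 65.1 and 82.9 by RNA-seq. Their half-lives were -1.47 to -0.47 (median -1.06), below the median mRNA in every case except CCNT1 under the loosest count filter, and those of HEXIM1 and CDK9 were lower by more than 2-fold except under that filter.

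CDK9, the kinase subunit (chromosome 9, 127786034 to 127790792, plus strand, 7 exons), had PRO-seq TPM of 127 and 149 in replicates 1 and 2. Its RNA-seq TPM was 34.4, 34.4, 38.2 and 33.6 in replicates 1 to 4. Every RNA-seq library was far below both PRO-seq libraries, where the median mRNA has a ratio of RNA-seq to PRO-seq TPM of 0.643. The half-life of CDK9 was -1.34 ± 0.127 (SE from the spread between libraries, as for the other members), 0.395 of that of the median mRNA (edgeR quasi-likelihood test, Benjamini-Hochberg adjusted p = 2.73e-12; for a difference over 2-fold, 0.000744). The PRO-seq value rests on 123 and 148 counts.

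HEXIM1 had PRO-seq TPM of 94.3 and 107, from 64 and 74 counts, the fewest of the members with a half-life. Its RNA-seq TPM was 24.8, 22.9, 23.8 and 22.2. HEXIM1 lay at much the same height as NELFE in PRO-seq, yet its RNA was the least abundant of the P-TEFb genes. Its half-life was -1.47 ± 0.0972, or 0.362 of the median mRNA and at percentile 18.0 of mRNAs (edgeR adjusted p = 1.44e-10; over 2-fold, 0.000412).

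CCNT1, cyclin T1 (chromosome 12, 48688458 to 48716707, minus strand), had the highest mean PRO-seq level of the members, at 138 and 146 TPM, within the range of CDK9. Its RNA-seq TPM was 66.7, 63.5, 67.6 and 66.1. The half-life of CCNT1 was -0.47 ± 0.0468 (edgeR adjusted p = 2.57e-10; over 2-fold, adjusted p = 1), and it was 0.16, above the median mRNA, when every TU with at least 1 summed count in each assay was fitted, a filter that moves the half-lives of shared TUs by 0.63 at the median. Under that filter CDK9 was at -0.71, HEXIM1 at -0.84 and CCNT2 at -0.14, still below the median mRNA.

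CCNT2, cyclin T2 (chromosome 2, 134918822 to 134959342, plus strand), was the least even of the trio between libraries. Its PRO-seq TPM was 89.0 and 74.9, and its RNA-seq TPM was 27.2, 32.8, 29.8 and 33.8, higher in replicates 2 and 4 than in 1 and 3. Its half-life was -0.77 ± 0.144 (edgeR adjusted p = 4.19e-11; over 2-fold, adjusted p = 1), with values from -1.08 to -0.51 over the 8 combinations of 1 library of each assay.

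SUPT5H and the NELF genes lay on the other side. SUPT5H, NELFCD, NELFB and NELFE had half-lives between 1.31 and 1.63 (median 1.49), each above the median mRNA by more than 2-fold, and NELFA lay near the median. In RNA-seq these 4 genes were at percentiles 85.0 to 93.1 of mRNAs, and in PRO-seq at 64.8 to 89.4.

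SUPT5H, the large subunit of DSIF and a substrate of CDK9 (chromosome 19, 39445582 to 39476670, plus strand, 31 exons), had PRO-seq TPM of 36.3 and 40.8 and RNA-seq TPM of 79.0, 74.4, 76.8 and 75.8. It was among the least transcribed of the members, below all but NELFA. Its half-life was the highest, 1.63 ± 0.0872, or 3.09 times that of the median mRNA and at percentile 84.5 (edgeR adjusted p = 2.59e-20; over 2-fold, 5.67e-11). Over the 8 combinations of libraries it ran from 1.51 to 1.76 and overlapped that of NELFCD (1.49 to 1.64), so their order is not settled. The counted TU starts 3939 bases upstream of the canonical start, so the bases around the canonical start were counted for PRO-seq. The effect of this on the half-life was not tested.

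NELFB (chromosome 9, 137255327 to 137273542, plus strand, 13 exons), a core NELF subunit, had 58.2 PRO-seq TPM in both libraries and 94.4, 98.7, 98.7 and 106 RNA-seq TPM. Its half-life was 1.41 ± 0.0355 (edgeR adjusted p = 1.30e-17; over 2-fold, 1.22e-06).

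NELFCD (chromosome 20, 58981256 to 58995113, plus strand, 15 exons), which encodes both the C and D forms of the third subunit, had PRO-seq TPM of 82.0 and 86.6 and RNA-seq TPM of 161, 166, 162 and 156. Its half-life was 1.58 ± 0.0434 (edgeR adjusted p = 5.86e-20; over 2-fold, 4.22e-10).

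NELFE (chromosome 6, 31952087 to 31958971, minus strand, 11 exons), the RNA-binding subunit, had PRO-seq TPM of 99.2 and 104 and RNA-seq TPM of 163, 162, 166 and 160. Its half-life was 1.31 ± 0.0383 (edgeR adjusted p = 1.40e-15; over 2-fold, 0.000201). NELFE and NELFCD were the most abundant RNAs of the members, at percentiles 93.1 and 93.0, and their RNA-seq ranges overlapped.

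NELFA (chromosome 4, 1982723 to 2008974, minus strand) stood apart from the other subunits in both assays, with PRO-seq TPM of 27.5 and 28.7 and RNA-seq TPM of 23.1, 20.5, 16.1 and 24.8. Its RNA-seq counts were 43 to 92 per library, and the PRO-seq libraries, at 390 and 415 counts, were more even. The half-life of 0.24 ± 0.140 passed narrowly (edgeR adjusted p = 0.0468; over 2-fold, adjusted p = 1), lay between -0.19 and 0.46 over the 8 combinations of libraries, and did not pass in 7 of 13 alternatives. The call was lost without RNA-seq replicate 1 (adjusted p = 0.168), RNA-seq replicate 4 (0.189), PRO-seq replicate 1 (0.134) or PRO-seq replicate 2 (0.095).

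With so few libraries an SE can fall below counting error, which was the larger for HEXIM1 (0.13), NELFB (0.0677), NELFCD (0.0638) and NELFE (0.0854).

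Counted together, 5 of the 9 members with a half-life were above the median mRNA and 4 below, beside 40.0% and 50.4% of all 10053 TUs tested. Among the 8733 mRNAs alone these shares were 45.4% and 44.9%. Since 90.4% of all TUs and 90.3% of mRNAs differed from the median mRNA beyond library error, a call for every member is no mark of these genes. More than 2-fold, 4 members were above and 2 below, beside 21.3% and 29.8% of all TUs (51.1% in either direction) and 24.3% and 23.2% of mRNAs (47.5%). With at least 1 summed count as the filter, 0 members were below by more than 2-fold. The members' median half-life was 0.24, with 0 for the median mRNA, and mRNAs in general had quartiles of -1.06 and 1.08. So 6 of the 9 lay outside these quartiles, HEXIM1 and CDK9 below and SUPT5H, NELFB, NELFCD and NELFE above. What the values show is the ordering by complex, with every P-TEFb gene and HEXIM1 below every NELF gene and SUPT5H. SUPT5H was the only DSIF gene with a half-life, and NELFA was counted on its longer TU. The ordering was noted on these data and not tested.

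The order of the genes changed between assays. By PRO-seq it was CCNT1 (142 ± 5.93 TPM, SD, n = 2), CDK9 (138 ± 16.1), NELFE (102 ± 3.68), HEXIM1 (101 ± 8.95), NELFCD (84.3 ± 3.25), CCNT2 (82.0 ± 10.0), NELFB (58.2 ± 0.00428), SUPT5H (38.5 ± 3.22) and NELFA (28.1 ± 0.853). Neighbours overlapped in this order for CCNT1 with CDK9, NELFE with HEXIM1, and NELFCD with CCNT2. The SD of NELFB is that of a pair of libraries that happened to agree closely, and does not stand for its precision, since its counts were 259 and 264.

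By RNA-seq the order was NELFE (163 ± 2.33, SD, n = 4), NELFCD (161 ± 4.08), NELFB (99.5 ± 4.95), SUPT5H (76.5 ± 1.93), CCNT1 (66.0 ± 1.77), CDK9 (35.2 ± 2.09), CCNT2 (30.9 ± 3.0), HEXIM1 (23.4 ± 1.12), NELFA (21.1 ± 3.80) and SUPT4H1 (2.41 ± 0.318). The neighbours that overlapped were NELFE with NELFCD, CDK9 with CCNT2, and HEXIM1 with NELFA. SUPT5H and CDK9 changed places, with CDK9 the higher in PRO-seq and SUPT5H the higher in RNA-seq, in every library. These are bulk libraries, in which fewer cells expressing a gene and less RNA per cell cannot be told apart.

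**Figure D2:**
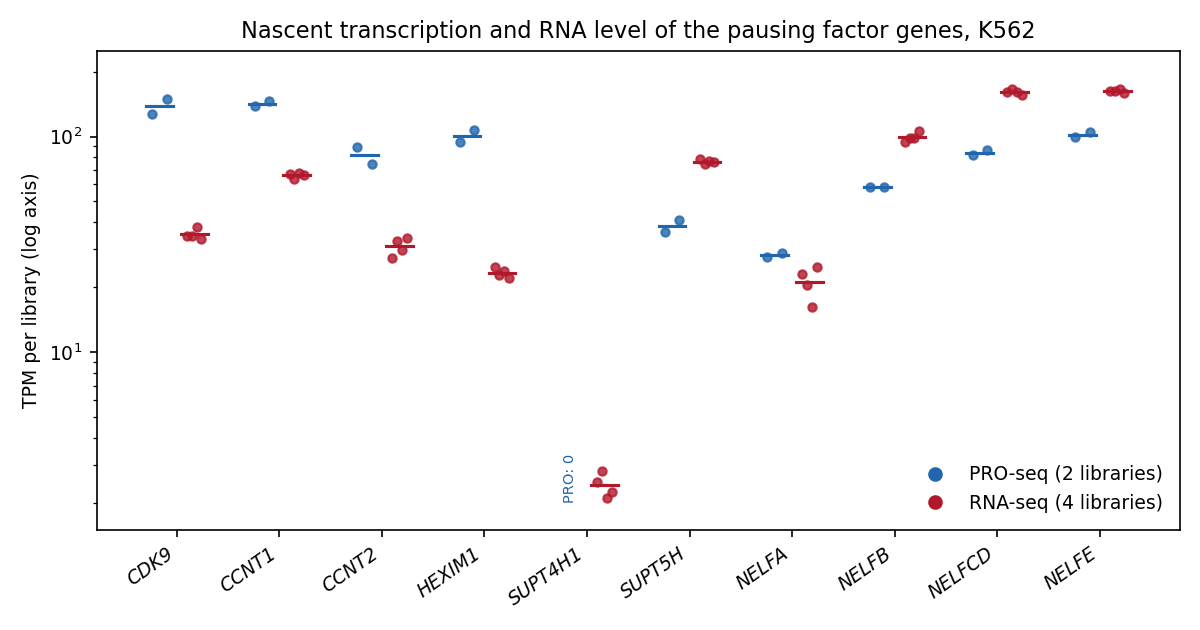
TPM of each member in every library (log axis), with PRO-seq and RNA-seq libraries as separate points. For the P-TEFb genes, HEXIM1 and NELFA all PRO-seq points lie above all RNA-seq points, and for SUPT5H, NELFB, NELFCD and NELFE all lie below them. The median mRNA is itself lower in RNA-seq than in PRO-seq TPM (ratio 0.643).

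Partners within a complex were then compared within each library, a ratio that does not depend on library size. NELFB, NELFCD and NELFE kept similar proportions in both assays, spanning 1.75-fold in PRO-seq (58.2 to 102 TPM) and 1.64-fold in RNA-seq (99.5 to 163 TPM). NELFCD was 0.828 of NELFE in PRO-seq and 0.992 in RNA-seq, a difference of 0.26 (log2) with no overlap between assays. Its SE over libraries was 0.0173, but the counts alone give a counting error of 0.107, since the PRO-seq libraries happened to lie close together. NELFB differed from NELFCD by -0.16 (-0.28 to 0.02 over the 8 combinations) and from NELFE by 0.10 (-0.02 to 0.25), and these pairs overlapped between assays. NELFA was lower relative to the other subunits in RNA-seq than in PRO-seq, by -1.20 against NELFB, -1.37 against NELFCD and -1.11 against NELFE, on its non-canonical TU.

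Within P-TEFb, CDK9 was transcribed almost level with CCNT1 (ratio 0.967 in PRO-seq), but its RNA was 0.532 of that of CCNT1. The difference was -0.86 (log2, SE 0.0848, counting error 0.104, from -1.01 to -0.70 over the combinations). Against CCNT2, CDK9 went from 1.68 in PRO-seq to 1.14 in RNA-seq, a difference of -0.56 (SE 0.262, -1.01 to -0.15). CCNT1 was 1.74 times CCNT2 in PRO-seq and 2.14 times in RNA-seq, a difference of 0.30 that overlapped between assays (-0.02 to 0.66).

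CDK9 and its inhibitor HEXIM1 kept nearly the same ratio, 1.37 in PRO-seq and 1.503 in RNA-seq, a difference of 0.13 (SE 0.0522, counting error 0.162, -0.01 to 0.26). None of the 10 pairs could pass a threshold of 0.05. The exact two-sided permutation test over the 6 libraries, computed here by doubling the smaller one-sided p, cannot go below p = 0.133. In that exact permutation test the smallest value was reached by the 6 pairs whose assays did not overlap (Benjamini-Hochberg adjusted p = 0.222), and the other 4 pairs gave p = 0.267. How often pairs of mRNAs in general do not overlap was not computed. Since 90.3% of mRNAs differed from the median mRNA, a lack of overlap is no mark of these partners. SUPT4H1 and SUPT5H could not be compared.

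Other genes of pausing and elongation were taken from a list of 29, of which 27 had a counted transcript and 23 passed the thresholds (RN7SK and CDC73 were not analysed here). Of these, 11 were above the median mRNA and 12 below (more than 2-fold, 6 and 7), with a median of -0.26. These shares are near those of all TUs. The groups within the list differed in direction. All 5 measured PAF1 complex genes were above, from PAF1 itself (0.27, edgeR adjusted p = 0.0392, and no longer called in 7 of 13 alternatives, where its adjusted p reached 0.248) to WDR61 (2.57 ± 0.0527, adjusted p = 1.85e-24, annotated as SKIC8), a WD-repeat protein that is also a subunit of the SKI complex. Both FACT histone chaperone genes were above, SUPT16H by 1.25 and SSRP1 by 2.01 (adjusted p = 3.34e-23).

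Of the 9 genes listed for the super elongation complex and ELL partners, 6 were tested, of which AFF1, AFF4, ELL, ELL2 and MLLT1 were below at -1.05 to -1.41 and EAF1 was above at 0.65. The PRO-seq threshold left out EAF2, with 16.4 TPM in RNA-seq and 4.45 in PRO-seq, which was above at 2.62 when at least 10 summed counts were the filter (edgeR adjusted p = 1.59e-16). MLLT3 and ELL3 did not pass either, with 42 and 1 RNA-seq counts. PPP1R10 (PNUTS), a phosphatase subunit, was lowest of the list at -5.01 (edgeR adjusted p = 3.21e-35), with 1096 TPM in PRO-seq and 21.8 in RNA-seq, summed over libraries. In the 7SK particle LARP7 was at 1.64 and the capping enzyme MEPCE at -0.78, whereas HEXIM2 did not pass the thresholds, with 33 RNA-seq and 39 PRO-seq counts. With at least 10 summed counts as the filter, HEXIM2 was below at -1.73 (edgeR adjusted p = 6.59e-05).

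The mRNAs nearest to SUPT5H in both levels, by Euclidean distance in log2 PRO-seq and RNA-seq TPM summed over the 6 libraries by assay, were MAPKAP1 (0.0101), NR2F6 (0.03405) and AGTRAP (0.0391). Among those nearest to HEXIM1 were CEBPB (0.0344) and ZNF200 (0.0523).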

How the data were processed

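Nascent and steady-state RNA of K562 cells were measured in 2 PRO-seq and 4 rRNA-depleted RNA-seq libraries. Per the study's methods, the authors trimmed reads with Cutadapt, aligned them with HISAT2 to GRCh38 and counted them with HTSeq per transcript. The deposited values are these raw counts, without normalization. Neither tool versions nor HTSeq's strand mode are given in the sources used here. The labels call the counted transcripts the longest ones, and the methods name the most abundant.

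Of 42371 transcripts, 37339 (88.1%) were joined by identifier to GENCODE lifted to GRCh37, whose lengths can differ from those on GRCh38. Entries naming no TU, left out here, held 66.5% to 68.6% of RNA-seq records and 86.5% to 88.6% of PRO-seq records. Gene coordinates and promoters are from RefSeq (GRCh38.p14). All 10 members matched. For TPM, RNA-seq counts were divided by exon length and PRO-seq counts by the span less 1000 bp (500 at each end). The methods give 500 bp at each end, whereas the labels give 500 bp removed. With 500 bp removed the half-life of HEXIM1 was -1.27 and that of CDK9 -1.21.

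TUs with summed TPM above 10 in PRO-seq and above 1 in RNA-seq entered the edgeR 4.0.16 quasi-likelihood test (in R 4.3.3) with TMM and length offsets, centred on the median mRNA, with Benjamini-Hochberg adjustment over all 10053 TUs and a threshold of 0.05. Differences over 2-fold were tested with its glmTreat. In a simulation of the comparison of RNA-seq with PRO-seq, 94% of 200 TUs changed by 1 (log2) were recovered among 10043 TUs, with 8 false calls. There all other TUs had exactly the median half-life, and all TUs had the same dispersion. In the data 90.4% of TUs were called, so the simulation checks the fit and does not give the error rate of these calls. Partner ratios were tested by exact permutation. The alternatives were DESeq2 (version 1.42.0), library totals, count filters, 500 bp removed, a replicate block, summed close pairs, a pseudocount of 1 TPM, CPM without length, and each library left out. No molecular identifiers are described in the sources used here, so counts cannot be taken as independent molecules.

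The members and lists were chosen with earlier results of these data known. Named genes are all members, from the other list the called 2 highest and 2 lowest by half-life, and the 3 mRNAs nearest in level to the members of highest and lowest half-life, of which some are not reported here. Genes added in sentences on groups, the promoters, the motifs and the strand check were chosen after the values were seen.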

Additional observations from a re-analysis of the deposited data

How the results depend on the processing

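The half-lives of CDK9, CCNT2, HEXIM1, SUPT5H, NELFB, NELFCD and NELFE kept their direction and their call in all 13 alternatives run. Fitting every TU with at least 1 summed count gave 6579 TUs above and 8008 below the median mRNA in place of 4019 and 5068, with more TUs tested. There the centre moved by 0.63, CCNT1 reversed to 0.16 (edgeR adjusted p = 0.00464), and 0 members were below by more than 2-fold in place of 2. The 4 members above by more than 2-fold stayed 4 in number throughout. The list of other elongation genes had 14 above and 9 below there, in place of 11 and 12, whereas its number above was 10 in 7 of 13 alternatives. At least 10 summed counts moved the centre by 0.11.

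NELFA lost its call with 500 bp removed (edgeR adjusted p = 0.0918), by DESeq2 (0.18), with a replicate block (0.0748) and without RNA-seq replicate 1 or 4 or either PRO-seq library, and over all alternatives its adjusted p ran from 2.47e-13 to 0.189. Without length (CPM), 5 partner differences reversed, to 0.53 for CDK9 against CCNT1, 1.35 for CDK9 against CCNT2, -0.93 for CDK9 against HEXIM1, -0.64 for NELFB against NELFE and -0.20 for NELFCD against NELFE, since the lengths of the genes then enter the ratio.

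With each library left out in turn, between 3869 and 4007 TUs were above and between 4896 and 5055 below. The replicate numbers were not used to pair the libraries in the main fit. Differences between replicates 1 and 2 in RNA-seq and PRO-seq had a correlation of -0.00604 over 12781 TUs. Library noise alone can give so low a value, so it does not settle whether the libraries are paired. With the replicate number as a block, 3922 TUs were above and 4969 below, 4 members were above (NELFA lost) and 4 below, and the members beyond 2-fold stayed 4 and 2. Depth limits HEXIM1, with 64 and 74 PRO-seq counts, CDK9, with 123 and 148, and NELFA, with 43 to 92 RNA-seq counts per library.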
